A study of Mus musculus with 6 samples.

Results

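The retinas of Bax het Atoh7 null embryos were compared with those of Bax null embryos, cell type by cell type. Membership followed the sample titles: 2 libraries of each genotype, 4 of the 6 libraries of the series, with 40504 of its 67050 cells. Each library held single retinal cells of mouse embryos at embryonic day 14, made with the 10x Genomics 3′ droplet method, in which each captured RNA molecule is counted once by a unique molecular identifier (UMI). Bax het Atoh7 null cells had no intact Atoh7 and kept 1 copy of Bax, and Bax null cells had lost Bax, with no Atoh7 allele named in their labels. The 2 groups therefore differed in both genes, and neither was wild type. A further group, labelled Bax null Atoh7 null, entered only through the shared estimate of spread, and its values are given beside a few genes. The labels give no strain, sex, number of pooled embryos or kind of allele, and do not say whether libraries came from separate animals, so p-values measure only the spread between libraries.

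Atoh7 encodes a basic helix-loop-helix transcription factor that is switched on in retinal progenitors as they leave the cell cycle and is needed for most retinal ganglion cells to form. Bax is one of the proteins that carry out programmed cell death, a process that removes many young ganglion cells during development. In the embryonic retina, multipotent progenitors give rise to a transient neurogenic state, from which ganglion cells, cones, horizontal cells and amacrine cells emerge at overlapping times. The authors' labels cover 5 of these populations: retinal progenitor cells, neurogenic cells, ganglion cells, cones and horizontal cells.

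Features of the libraries differed along with the genotype, and the labels name no batch. UMI totals were 29145412 and 28901154 in Bax het Atoh7 null and 63085055 and 66594431 in Bax null. The mitochondrial share of UMIs was 1.15% and 1.06% against 3.80% and 3.90%. In the libraries labelled Bax null Atoh7 null it was 1.10% and 1.13%, near Bax het Atoh7 null. Median UMIs per cell were 2632 and 2206 in Bax het Atoh7 null, 1940 and 1634 in that further group, and 5660.5 and 6804 in Bax null. Values of the further group, set beside some genes below, are therefore not independent of this difference between libraries. Erythroid markers summed to 13.9 to 239 CPM (UMI counts scaled to an equal total for every library) in the 5 types of Bax het Atoh7 null and to 824 to 1897 CPM in Bax null. Pairs of the 4 libraries shared 126 to 172 cell barcodes. The 2 libraries labelled Bax null Atoh7 null shared 2596 of the 11816 barcodes of replicate 2, and leaving out either is among the alternatives. The libraries and the genotype cannot be told apart by a direct comparison, so each gene was also compared within libraries: its log2 change in 1 type minus the mean of its changes in the other 4 types, a measure in which anything that shifts all types of a library alike drops out. The 2 genotypes filled different clusters of the authors within some types. Shared occupancy was 25.5% over the 20 ganglion clusters, 39.3% over the 84 progenitor clusters, 63.3% over the 27 neurogenic clusters, 84.4% over the 6 horizontal clusters and 93.5% over the 5 cone clusters. The fullest ganglion clusters were 46 and 53 in Bax het Atoh7 null and 9 and 19 in Bax null.

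The genotypes were first checked on the 2 genes themselves. Atoh7 (chr10:63099651-63101279 in mm10) gave 0 UMIs in every type of both Bax het Atoh7 null libraries. In Bax null it was highest in neurogenic cells, at 22.5 and 21.1 CPM (255 and 298 UMIs), followed by cones at 13.1 and 14.01 CPM, ganglion cells at 7.35 and 10.4 CPM, and horizontal cells at 3.61 and 8.05 CPM. Progenitors were lowest, at 0.570 and 0.488 CPM. A count of 0 allowed up to 0.561 and 0.509 CPM in the 2 Bax het Atoh7 null sums of neurogenic cells (3 UMIs per library), for counting error only. Bax (chr7:45461697-45466898) read 251 and 185 CPM in ganglion cells of Bax het Atoh7 null against 30.3 and 26.7 CPM in Bax null. It was higher in Bax het Atoh7 null in each type, by a log2 change of 2.43 in ganglion cells, 2.44 in neurogenic cells, 2.72 in progenitors, 1.79 in cones and 1.91 in horizontal cells (adjusted p from 9.58e-06 to 0.00299). The within-library difference of Bax in ganglion cells was 0.22 (adjusted p = 0.287). The labels do not give the deleted part of Bax, so its remaining UMIs in Bax null check the labels only by their level. Replicate 1 of the group labelled Bax null Atoh7 null went against its label by this measure: Bax read 85.2 CPM there in ganglion cells and 37.9 CPM in progenitors. The values were 28.1 and 5.83 CPM in replicate 2 and, in progenitors of Bax null, 11.8 and 10.7 CPM. In each of the 5 types, replicate 1 lay above both Bax null libraries and below both Bax het Atoh7 null libraries.

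Ganglion cells made up a smaller share of the Bax het Atoh7 null retina, and cones and horizontal cells a larger one. Ganglion cells were 6.93% and 9.31% of cells in Bax het Atoh7 null and 17.3% and 16.9% in Bax null, and the groups did not overlap. Their share fell by 1.07 on the log2 scale, with an SE of 0.14 ( adjusted p = 6.05e-06; edgeR's quasi-likelihood test on cell numbers with Benjamini-Hochberg adjustment over 5 types). Cones were 5.55% and 6.43% against 3.22% and 2.77%, a log2 rise of 0.998 (SE 0.15, adjusted p = 1.78e-05). Horizontal cells were 4.41% and 5.24% against 3.17% and 3.07%, a log2 rise of 0.63 (SE 0.15, adjusted p = 0.00125). Both rises involved groups that did not overlap. The neurogenic share was 19.5% and 21.1% against 16.2% and 18.3% (log2 0.24, adjusted p = 0.125), and the progenitor share 63.6% and 57.9% against 60.2% and 58.9% (log2 0.03, adjusted p = 0.825).

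Shares of one library sum to a whole, so a smaller ganglion share raises the others. Counted among cells other than ganglion cells, a denominator chosen after seeing the data, cones were 5.96% and 7.10% against 3.90% and 3.34% (log2 0.85, adjusted p = 0.00014). Horizontal cells were 4.73% and 5.78% against 3.83% and 3.70% (log2 0.48, adjusted p = 0.00725), so both rises held. For every 100 ganglion cells there were 80.1 and 69.1 cones in Bax het Atoh7 null and 18.7 and 16.4 in Bax null, and 63.6 and 56.3 horizontal cells against 18.3 and 18.1. The lowest UMI total per cell was 1163 and 1071 in the Bax het Atoh7 null libraries and 500 in both Bax null libraries. Leaving out cells under 1000 UMIs changed no call on the shares of ganglion cells, cones and horizontal cells.

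**Figure D1:**
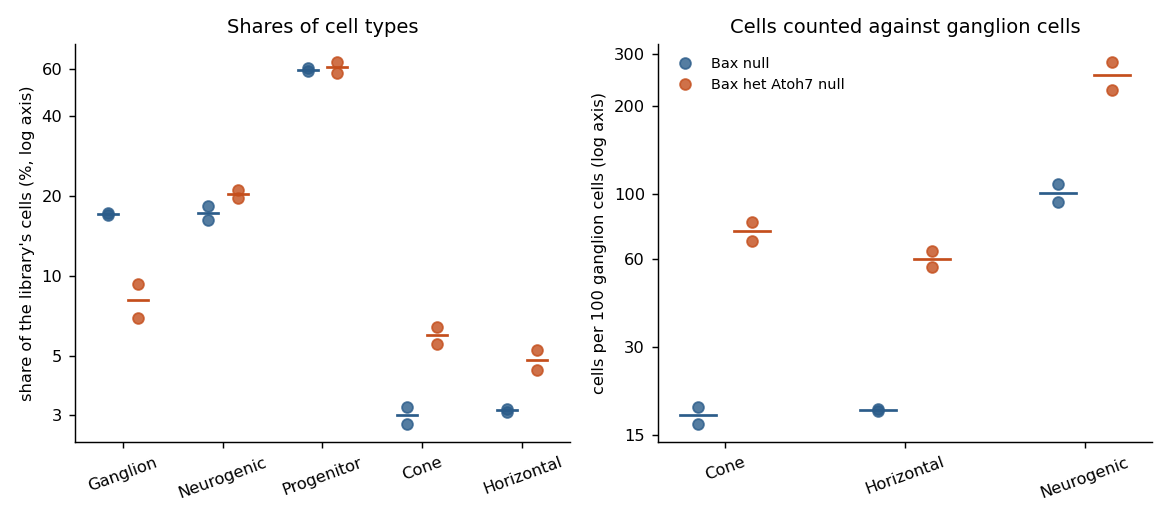
Share of each library's cells in the 5 types (left) and cells per 100 ganglion cells (right), on log axes, with 1 point per library and a bar at the mean of 2 libraries. Ganglion shares sit at 6.93% and 9.31% in Bax het Atoh7 null and near 17% in Bax null, and the cone and horizontal points of Bax het Atoh7 null lie above those of Bax null.

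Direct comparison called a large part of all genes in each type. At an adjusted p under 0.05, 2647 genes were higher and 2650 lower in ganglion cells of Bax het Atoh7 null (50.0% of 10586 tested). Without 1 library, that total was between 3802 and 5755. The called share was 47.1% of 11670 genes in neurogenic cells, 53.1% of 13396 in progenitors, 27.5% of 9421 in cones and 30.2% of 8960 in horizontal cells. In these sums, fewer cells of a subtype and less RNA per cell cannot be told apart. A set of 624 genes was higher in all 5 types (7.39% of the 8445 tested in all 5) and 809 were lower in all 5 (9.58%). Without Bax null replicate 2 the called genes were 3516 in neurogenic cells, 1405 in cones and 1469 in horizontal cells, and 261 were higher and 442 lower in all 5. Without Bax null replicate 1 there were 1457 in cones, 1722 in horizontal cells, and 315 and 481 in all 5. Without Bax het Atoh7 null replicate 1 there were 1799 in horizontal cells and 402 and 502 in all 5, and without Bax het Atoh7 null replicate 2 there were 1603 and 312 and 522. The genes lower in all types included 11 mitochondrial genes and 58 ribosomal protein genes. A group of 27 genes was at least 16-fold lower in every type and every pair of libraries, and none was at least 16-fold higher. mt-Atp8, a mitochondrial ATP synthase subunit, was at 0 UMIs in all 5 types of Bax het Atoh7 null and at 130 to 157 CPM in Bax null.

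Some genes of retinal development belonged to these library-wide changes. Hes1, a Notch effector that keeps progenitors undifferentiated, was lower in all 5 types, by a log2 change of -3.48 in neurogenic cells, -2.66 in progenitors, -2.68 in horizontal cells, -2.16 in cones and -2.07 in ganglion cells. Aen, a p53 target and nuclease, was lower in all 5 types (log2 -3.81 to -2.90), while the p53 inhibitor Mdm2 and the caspase gene Casp2 were higher in all 5 (log2 1.05 to 1.62 and 1.26 to 1.78). The Casp2 rise in horizontal cells was not called without Bax het Atoh7 null replicate 2 (log2 0.85, adjusted p = 0.0637). Slc2a1, the glucose transporter, was also higher in all 5. Hes1 fell further in neurogenic cells than in the other types, with a within-library difference of -1.10. The part of these changes that all 5 types share cannot be told apart from the difference between the libraries.

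Within libraries, more genes set ganglion cells apart from the other types than any other type. The within-library difference was called for 1715 of 12180 genes in ganglion cells (14.1%; 710 above and 1005 below the other types). It was called for 1193 genes in progenitors (9.79%, with 3.62% above and 6.17% below), 1170 in neurogenic cells (9.61%, 4.09% and 5.52%), 467 in cones (3.83%, 1.86% and 1.98%) and 188 in horizontal cells (1.54%, 0.443% and 1.1%). A stricter rule called a gene particular to a type where its change there differed, in 1 direction, from its change in each of the other 4 types. It took 182 genes in ganglion cells (1.49%), 28 in neurogenic cells (0.23%), 6 in progenitors (0.0493%), 5 in horizontal cells (0.0411%) and 3 in cones (0.0246%). Of the 182 ganglion genes, 83 changed upward and 99 downward relative to the other types, and 74 were called in the opposite direction in another type. The ganglion count was 78 without Bax het Atoh7 null replicate 1, 99 without Bax het Atoh7 null replicate 2, 111 without replicate 1 of Bax null and 79 without its replicate 2. The neurogenic count was 2 without Bax het Atoh7 null replicate 2, and it was 12 without Bax null replicate 2. In the other 3 types, leaving out any 1 of the 4 libraries left between 0 and 6 genes. The within-library calls in ganglion cells were 1132 without replicate 1 of Bax het Atoh7 null and 1038 without its replicate 2. These fits count the 5 sums of a library as separate observations. With limma on a single difference per library, 357 ganglion genes were called, 3 progenitor genes, 1 neurogenic gene, 1 cone gene and 0 horizontal genes (1030 of these at an unadjusted p under 0.05). Tested in that way, after seeing the data, the stricter rule called 0 genes in each type (unadjusted p under 0.05 for 365 genes in ganglion cells, 158 in cones, 108 in horizontal cells, 77 in neurogenic cells and 32 in progenitors).

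The ganglion cells of Bax het Atoh7 null had lower levels of ganglion cell transcription factors and axon genes. Of 20 ganglion factors, 15 were tested, and 12 were lower and 0 higher in the direct comparison, in which 25.0% of all genes were lower. Their median log2 change was -1.07 beside 0.01 over all genes tested. Isl1, a LIM-homeodomain factor of ganglion cells, read 421 and 459 CPM in Bax het Atoh7 null against 919 and 935 CPM in Bax null. It fell by 1.07 on the log2 scale (adjusted p = 9.73e-06). Gene levels from here on, those of Isl1 included, are normalised by TMM. Marker sums and levels per cluster are not, and are scaled by total UMIs alone. On that scale, Bax het Atoh7 null stands higher against Bax null in every type than on the normalised scale. Pou4f2, a POU factor that acts downstream of Atoh7 in ganglion cells, read 31.6 and 59.5 against 106 and 103 CPM (log2 -1.14, adjusted p = 0.000167). Ebf1, a helix-loop-helix factor of early ganglion cells, read 662 and 673 against 2329 and 2440 CPM (log2 -1.84, adjusted p = 1.28e-07). No library of one group reached the range of the other for these 3 genes. Pou4f1, a close relative of Pou4f2, read 178 and 173 against 144 and 164 CPM and was not called (log2 0.18, adjusted p = 0.179).

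The factors differed in how they separated ganglion cells from the other types. Isl1 fell also in neurogenic cells, and its within-library difference in ganglion cells was -0.09 (adjusted p = 0.788). Pou4f2 fell more in neurogenic cells (log2 -2.57) than in ganglion cells, so its within-library difference in ganglion cells was positive, at 1.18 (adjusted p = 0.0352). That of Pou4f2 was not called without Bax het Atoh7 null replicate 2 (log2 0.66, adjusted p = 0.536), Bax null replicate 1 (log2 1.23, adjusted p = 0.0644) or Bax null replicate 2 (log2 1.06, adjusted p = 0.153). Ebf1 was particular to ganglion cells (within-library difference -1.49, SE 0.08, adjusted p = 1.53e-21), and this difference missed the threshold with limma on a single difference per library (adjusted p = 0.0518). Within libraries, 10 of 17 ganglion factors were below the other types, as were 8.25% of all genes, and 1 was above. The count below was 5 or 6 without Bax het Atoh7 null replicate 1, Bax het Atoh7 null replicate 2 or Bax null replicate 2.

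Of 20 axon and neuronal genes, 18 were tested in ganglion cells, with 14 lower and 1 higher (median log2 change -1.18), where 25.0% of all genes were lower and 25.0% higher. Gap43, a growth cone protein, read 1267 and 1652 against 3166 and 3558 CPM (log2 -1.20, SE 0.17, adjusted p = 7.92e-05). Mapt, which encodes the microtubule protein tau, read 154 and 158 against 477 and 519 CPM (log2 -1.67, adjusted p = 4.85e-08). Stmn3, a stathmin of growing axons, read 518 and 586 against 1229 and 1426 CPM (log2 -1.27, adjusted p = 4.52e-06). All 3 were lower in both libraries and were particular to ganglion cells. Gap43 and Stmn3 moved the other way in neurogenic cells, by log2 0.94 and 0.97. With limma on a single difference per library the within-library difference of Gap43 was not called (-1.14, adjusted p = 0.136). Sncg, gamma-synuclein, had the greatest fall of the list, from 2747 and 3085 CPM to 125 and 157 CPM (log2 -4.37). Its within-library difference of -1.25 was lost without Bax het Atoh7 null replicate 1 (log2 -0.98, adjusted p = 0.235) and without Bax het Atoh7 null replicate 2 (log2 -1.44, adjusted p = 0.13).

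Beyond the lists, genes near absence in the Bax het Atoh7 null ganglion cells included Irx3, Calb2 and Crnde. Irx3, an Iroquois homeobox factor, read 1.44 and 2.96 against 121 and 133 CPM (log2 -5.75, SE 0.22, adjusted p = 1.02e-09). Calb2, the calcium-binding protein calretinin, read 1.92 and 2.30 against 52.1 and 65.0 CPM (log2 -4.76, adjusted p = 5.73e-08). Crnde, a long noncoding RNA gene next to the Iroquois cluster, read 3.36 and 3.95 against 43.9 and 47.2 CPM (log2 -3.61, adjusted p = 8.04e-08). These 3 were particular to ganglion cells, and in the libraries labelled Bax null Atoh7 null they read 5.87 and 8.04, 3.80 and 1.83, and 4.49 and 7.31 CPM. The within-library differences rest on few UMIs outside ganglion cells: without Bax het Atoh7 null replicate 2, those of Irx3 (-3.33, adjusted p = 1.0) and Calb2 (-3.39, adjusted p = 1.0) were not called, while their direct falls were. Ngfr, the p75 neurotrophin receptor, read 13.4 and 17.4 against 44.1 and 46.0 CPM (log2 -1.51, adjusted p = 5.49e-06), rose in progenitors (log2 0.95) and had a within-library difference of -3.97. Cadm1, a synaptic adhesion molecule, moved in opposite directions in these 2 types. It read 111 and 114 CPM in ganglion cells of Bax het Atoh7 null against 356 and 332 CPM (log2 -1.61), but 382 and 457 CPM in progenitors against 165 and 151 CPM (log2 1.41).

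**Figure D2:**
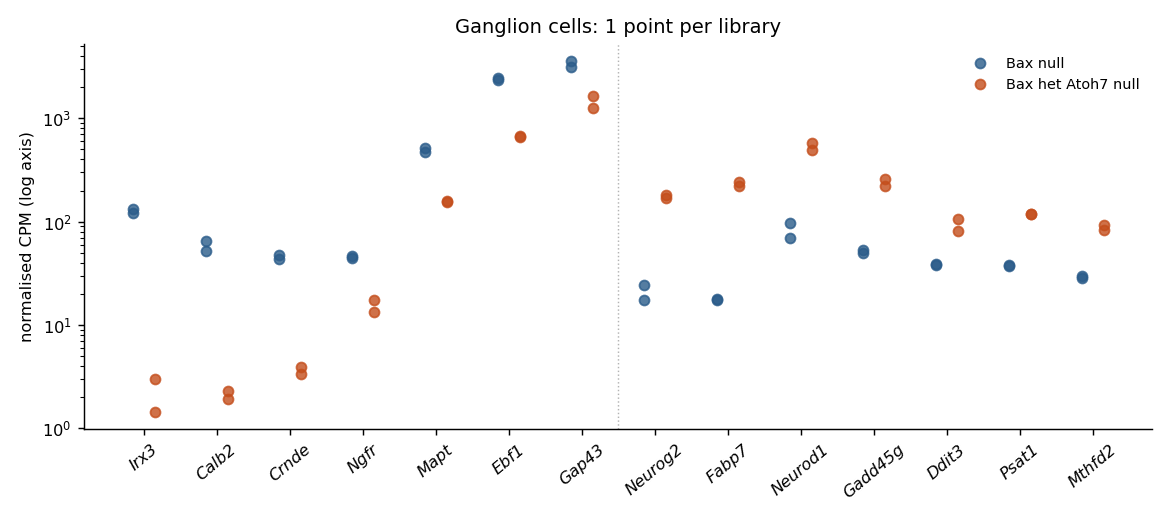
Normalised CPM of 14 genes in ganglion cells, on a log axis, with 1 point per library. Genes left of the dotted line are lower in both Bax het Atoh7 null libraries (Irx3 at 1.44 and 2.96 against 121 and 133 CPM), and those right of it are higher (Fabp7 at 221 and 243 against 17.6 and 17.4 CPM).

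The same ganglion cells had higher levels of neurogenic genes, while progenitor genes were called in both directions. Of 20 neurogenic genes, 19 were tested, with 15 higher and 0 lower, where 25.0% of all genes were higher. The median log2 change was 1.02. Of 20 cone and photoreceptor genes, 8 were tested in ganglion cells, with 5 higher and 1 lower. Among these was Neurod1, a helix-loop-helix factor of differentiating neurons that is not on the neurogenic list. It read 583 and 496 CPM in Bax het Atoh7 null against 96.3 and 69.4 CPM (log2 2.70, SE 0.15, adjusted p = 2.61e-08). On the neurogenic list, Neurog2, a proneural factor expressed before Atoh7, read 183 and 168 against 24.1 and 17.3 CPM (log2 3.08, adjusted p = 5.09e-09). Insm1, a zinc-finger factor of newborn neurons, read 324 and 399 against 55.4 and 49.1 CPM (log2 2.79, adjusted p = 1.86e-07). The groups did not overlap for any of these 3, and Neurod1 and Insm1 were particular to ganglion cells (within-library differences 2.13 and 1.65). Of 16 progenitor genes, 8 were higher and 5 lower, beside 25.0% of all genes in each direction. The lower count was 3 without Bax het Atoh7 null replicate 2, and it was 2 without Bax null replicate 2. Within libraries 12 lay above the other types, as did 5.83% of all genes, and 7 without Bax null replicate 2. Of 16 cell cycle genes, 10 were higher and 1 lower in ganglion cells (median log2 change 0.71). Fewer were higher without Bax het Atoh7 null replicate 1 or without Bax null replicate 2. The rise was not confined to ganglion cells: 7 of 14 were higher and 1 lower in cones, and likewise in horizontal cells. There 12.7% and 14.4% of all genes were higher. Within libraries 3 of the 16 lay above the other types in ganglion cells and 0 below.

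Further genes that rose in ganglion cells were identified by the size of their change. Fabp7, a fatty acid binding protein of neural progenitors, read 221 and 243 CPM against 17.6 and 17.4 CPM (log2 3.73, SE 0.14, adjusted p = 7.72e-10). Gadd45g, a growth arrest gene of cells leaving the cycle, read 256 and 220 against 52.9 and 50.2 CPM (log2 2.20, adjusted p = 8.13e-09), and it fell in cones (log2 -0.60), except without Bax null replicate 1 (log2 -0.39, adjusted p = 0.138). Pacsin1, an endocytic adaptor of neurons, read 61.8 and 71.3 against 9.18 and 7.07 CPM (log2 3.04, adjusted p = 1.18e-08). Fabp7, Gadd45g and Pacsin1 were particular to ganglion cells, with within-library differences of 2.93, 2.19 and 2.76, and both libraries lay above Bax null in each. Reln, the secreted glycoprotein reelin, read 159 and 160 against 51.6 and 51.9 CPM (log2 1.63, adjusted p = 2.87e-08). Tfap2b, an amacrine and horizontal cell factor, read 109 in both Bax het Atoh7 null libraries against 12.8 and 12.1 CPM (log2 3.12). Its within-library difference of 2.05 was not called without Bax null replicate 1 (log2 1.72, adjusted p = 0.108).

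Markers of other cell types moved with these changes. All sums here are CPM without TMM, a scale that widens rises and narrows falls beside the gene levels above. In the ganglion cells, 5 amacrine markers summed to 124 and 122 CPM in Bax het Atoh7 null against 13.0 and 12.4 CPM in Bax null. The 5 horizontal markers summed to 1233 and 1157 against 521 and 515 CPM, the 7 neurogenic markers to 1007 and 847 against 508 and 505 CPM, and the 6 progenitor markers to 1157 and 1104 against 513 and 355 CPM. The 6 ganglion markers summed to 7115 and 8042 against 9919 and 10453 CPM, and stayed the largest of these sums in every library. Among the 6, Isl1, Pou4f2, Sncg and Gap43 fell, as given above. Whether the label names the same kind of cell in both groups was not tested. At least 2 of the 5 amacrine markers and at least 3 of the 5 horizontal markers were detected in every library. Of cell types from outside the neural retina, endothelial markers summed to 46.0 and 24.1 against 9.45 and 9.35 CPM, and lens, mesenchyme, pigment epithelium and microglia markers stayed under 4 CPM in all 4 libraries. The part of these markers in the ganglion results was not tested.

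Genes of the integrated stress response, the programme in which the factor ATF4 raises amino acid supply genes and death-related factors when translation is restrained, were higher in Bax het Atoh7 null ganglion cells. All 16 were tested, with 12 higher and 2 lower (median log2 change 1.55), where 25.0% of all genes were higher and 25.0% lower. Within libraries 12 lay above the other types, as did 5.83% of all genes. In cones 1 of 15 was higher and 4 lower (12.7% and 14.8% of all genes), and in horizontal cells 1 of 9 was higher and 2 lower (14.4% and 15.8%). In progenitors 9 of 15 were higher and 3 lower (26.6% and 26.5%), and in neurogenic cells 4 of 11 were higher and 2 lower (23.4% and 23.8%). With limma on a single difference per library, 7 of the 12 within-library calls in ganglion cells were made.

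Ddit3, the stress-induced factor CHOP, read 105 and 81.9 CPM in ganglion cells of Bax het Atoh7 null against 38.5 and 38.0 CPM (log2 1.27, SE 0.13, adjusted p = 4.85e-06), and it fell in cones (log2 -0.59). The cone fall of Ddit3 was not called without Bax het Atoh7 null replicate 2 (log2 -0.50, adjusted p = 0.0648) or Bax null replicate 2 (log2 -0.45, adjusted p = 0.112). Asns, asparagine synthetase, read 76.7 and 83.5 against 22.9 and 22.3 CPM (log2 1.83, adjusted p = 6.52e-08). Sesn2, a stress-induced regulator of growth signalling, read 16.3 and 17.8 against 1.10 and 1.56 CPM (log2 3.66, adjusted p = 2.7e-06). Both libraries of Bax het Atoh7 null lay above both of Bax null for each. Atf3, a partner of CHOP and a marker of injured neurons, read 16.3 and 16.8 against 0.490 and 0.599 CPM (log2 4.86), with a within-library difference of 5.29 that was not called without Bax null replicate 1 (log2 3.95, adjusted p = 1.0). Ddit3 was particular to ganglion cells (within-library difference 1.40, adjusted p = 1.12e-14). Atf4 itself was at 151 and 164 against 191 and 196 CPM (log2 -0.29, adjusted p = 0.0327), a fall not called without Bax het Atoh7 null replicate 1 (log2 -0.24, adjusted p = 0.183) or any other of the 4 libraries (adjusted p up to 0.183).

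Serine and folate enzymes, picked after their values were seen, rose in the same cells. Psat1, which makes serine, read 117 in both Bax het Atoh7 null libraries against 37.1 and 37.6 CPM (log2 1.65, adjusted p = 4.53e-08). Mthfd2, a mitochondrial folate enzyme, read 93.0 and 83.8 against 28.8 and 29.8 CPM (log2 1.59, adjusted p = 2.06e-07), and Shmt2, its serine-using partner enzyme, 55.1 and 59.8 against 22.3 and 19.3 CPM (log2 1.47, adjusted p = 1.44e-06). Eif4ebp1, a translation repressor, rose in ganglion cells (log2 0.76, adjusted p = 0.000181) and fell in neurogenic cells (log2 -0.86), progenitors (log2 -0.36) and cones (log2 -1.09). The progenitor fall of Eif4ebp1 was not called without Bax het Atoh7 null replicate 1 (log2 -0.20, adjusted p = 0.188), Bax null replicate 1 (log2 -0.39, adjusted p = 0.0658) or Bax null replicate 2 (log2 -0.32, adjusted p = 0.126). All 4 were particular to ganglion cells and were called with limma on a single difference per library. None of these within-library differences was called in every setting run. In the libraries labelled Bax null Atoh7 null, of which replicate 1 held more Bax UMIs than Bax null, Ddit3 read 161 and 144 CPM, Atf3 40.4 and 46.1 CPM and Mthfd2 133 and 125 CPM. Each of these values lay above those of both Bax het Atoh7 null libraries. The comparisons of the 2 Atoh7 null genotypes with Bax null share the Bax null libraries.

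**Figure D3:**
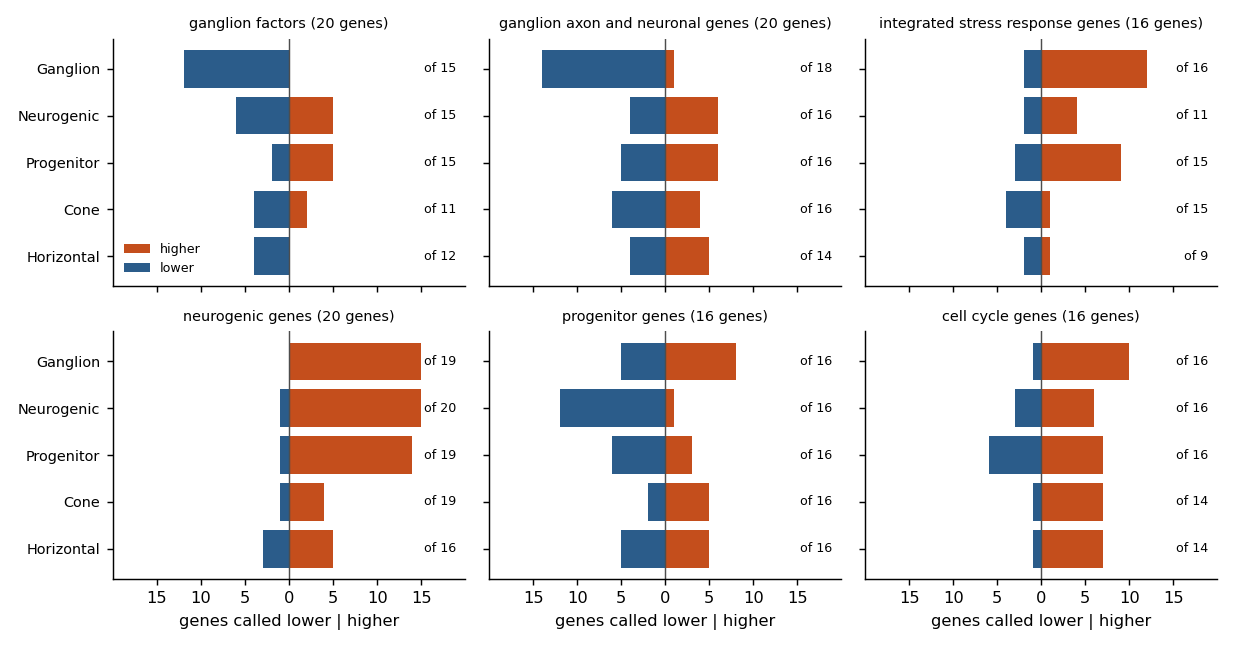
Number of genes called higher (orange, right) and lower (blue, left) in Bax het Atoh7 null in each of the 5 cell types, for 6 gene lists, with the number tested at the right of each bar. In ganglion cells 12 of 15 ganglion factors and 14 of 18 axon genes are lower and 12 of 16 stress response genes are higher, while in neurogenic cells 12 of 16 progenitor genes are lower.

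Neurogenic cells of Bax het Atoh7 null nearly lacked Gal, which encodes the neuropeptide galanin. Gal read 3.37 and 3.10 CPM in Bax het Atoh7 null against 495 and 462 CPM in Bax null, and fell by 7.20 on the log2 scale, with an SE of 0.15 (adjusted p = 2.14e-11). It fell also in ganglion cells (77.6 and 78.6 against 785 and 912 CPM, log2 -3.44), in horizontal cells (28.0 and 14.5 against 786 and 521 CPM, log2 -4.98) and in progenitors (1.06 and 1.24 against 7.71 and 7.03 CPM, log2 -2.68). The fall in neurogenic cells exceeded that in every other type (within-library difference -4.03, SE 0.46, adjusted p = 4.44e-09), and Gal was the 1 neurogenic gene called with limma on a single difference per library. In neurogenic cells labelled Bax null Atoh7 null, Gal read 3.36 and 4.71 CPM. Isl1 fell with it, from 48.0 and 47.1 CPM to 9.60 and 8.36 CPM (log2 -2.40, adjusted p = 9.75e-08).

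Bases upstream of 3 genes, chosen after their values were seen, are shown so that the letters before genes with wide differences between the groups can be read: Gal, which fell in neurogenic cells, and Neurod1 and Fabp7, which rose in ganglion cells. Atoh7 is a helix-loop-helix factor, and such factors bind E-boxes of the form CANNTG, which read the same on both strands. Matches to CANNTG are in capitals. Sequences and starts are from RefSeq (GRCm38.p6), written 5′ to 3′ on the strand of the gene. Of the 250 bases before each RefSeq start, those within or after an exon of the GENCODE annotation are not printed. The printed bases are chr19:3414545-3414794 (minus strand) for Gal, chr2:79456786-79456886 (minus) for Neurod1 and chr10:57784673-57784880 (plus) for Fabp7.
Gal: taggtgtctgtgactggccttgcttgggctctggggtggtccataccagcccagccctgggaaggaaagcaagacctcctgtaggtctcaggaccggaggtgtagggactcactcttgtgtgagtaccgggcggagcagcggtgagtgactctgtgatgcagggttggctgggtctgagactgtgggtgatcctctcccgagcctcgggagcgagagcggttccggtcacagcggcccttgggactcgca
Neurod1: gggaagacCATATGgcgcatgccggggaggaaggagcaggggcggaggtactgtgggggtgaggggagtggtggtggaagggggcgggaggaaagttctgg
Fabp7: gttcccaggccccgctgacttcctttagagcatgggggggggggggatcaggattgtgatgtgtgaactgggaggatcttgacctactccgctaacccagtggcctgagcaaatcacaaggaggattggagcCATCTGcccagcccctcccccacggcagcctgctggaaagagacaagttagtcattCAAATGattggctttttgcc
Over the full 250 bases, CANNTG occurred 0 times before Gal, once before Neurod1 and 2 times before Fabp7. Of 32851 windows of that length in the table, 66.2% held at least 1 match. The narrower form CAGATG, on either strand, was in the Fabp7 window and in 14.4% of all windows. A match is a description of these letters and says nothing on binding.

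Neurogenic genes were higher and progenitor genes lower in the neurogenic cells of Bax het Atoh7 null. Of 20 neurogenic genes, 15 were higher and 1 lower (median log2 change 0.92, beside 0.00 over all genes), where 23.4% of all genes were higher and 23.8% lower. Neurog2 read 734 and 727 CPM against 345 and 287 CPM (log2 1.21, adjusted p = 4.59e-05). Olig2, a helix-loop-helix factor of the same transient cells, read 53.9 and 55.9 against 18.1 and 14.6 CPM (log2 1.75, adjusted p = 6.62e-07), and Dll3, a Notch ligand, 127 and 147 against 54.9 and 46.1 CPM (log2 1.44, adjusted p = 1.34e-05). For all 3, both libraries of Bax het Atoh7 null lay above both of Bax null. The within-library differences of Neurog2 and Olig2 did not pass (-0.33, adjusted p = 0.056, and -0.29, adjusted p = 0.776). That of Neurog2 passed without replicate 1 (adjusted p = 0.0345) or replicate 2 (adjusted p = 0.034) of the group labelled Bax null Atoh7 null, and it was above 0 with progenitors alone as the reference (0.72, adjusted p = 3.15e-08). Without TMM, the 7 neurogenic markers, with Atoh7 among them, summed to 3828 and 3747 CPM in Bax het Atoh7 null against 2029 and 1798 CPM. On the same scale, 6 ganglion markers summed to 625 and 701 against 267 and 262 CPM. Their part in the other differences was not tested. The fullest neurogenic clusters were 16 and 3 in Bax het Atoh7 null and 61 and 134 in Bax null.

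Of 16 progenitor genes, 12 were lower and 1 higher in neurogenic cells (median log2 change -0.66), and 15 lay below the other types within libraries, as did 5.52% of all genes. Id3, an inhibitor of helix-loop-helix factors, read 179 and 153 CPM against 469 and 616 CPM (log2 -1.71, adjusted p = 2.67e-05). Sfrp2, a secreted Wnt modulator of early progenitors, read 584 and 551 against 872 and 1029 CPM (log2 -0.74, adjusted p = 0.000673). Dapl1, a gene of retinal progenitors, read 228 and 221 against 363 and 432 CPM (log2 -0.82, adjusted p = 0.00399). The 3 were particular to neurogenic cells, with within-library differences of -1.48, -1.51 and -1.34, and the libraries of the groups did not overlap. Sfrp2 and Dapl1 rose in ganglion cells (log2 1.06 and 1.202). Fgf15, a growth factor of retinal progenitors, fell by 0.48 on the log2 scale (adjusted p = 0.00766), a fall not called without Bax het Atoh7 null replicate 1 (log2 -0.45, adjusted p = 0.067) or Bax null replicate 2 (log2 -0.37, adjusted p = 0.118). With limma on a single difference per library none of Id3, Sfrp2, Dapl1 and Fgf15 was called (adjusted p = 0.134, 0.111, 0.117 and 0.114). Hes1, also particular to neurogenic cells (within-library difference -1.10), was not called in that way either.

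Of 20 axon and neuronal genes, 16 were tested in neurogenic cells, with 6 higher and 4 lower, near the 23.4% and 23.8% of all genes. The lower count was 2 without Bax het Atoh7 null replicate 2 or without Bax null replicate 2. Gap43 read 73.3 and 95.1 CPM against 41.9 and 46.0 CPM (log2 0.94, adjusted p = 0.000226), opposite to its fall in ganglion cells. Cplx2, a complexin of the synaptic release machinery, read 55.2 and 64.3 against 32.1 and 34.4 CPM (log2 0.85, adjusted p = 9.34e-05) and fell in ganglion cells (log2 -0.64) and horizontal cells (log2 -0.66). The horizontal fall of Cplx2 was not called without Bax het Atoh7 null replicate 2 (log2 -0.58, adjusted p = 0.103) or Bax null replicate 2 (log2 -0.48, adjusted p = 0.177). Both were particular to neurogenic cells in the fit over all sums, with within-library differences of 1.54 and 1.11, and neither was called with limma on a single difference per library (adjusted p = 0.117 and 0.111). Sncb, beta-synuclein, read 27.5 and 46.0 against 4.08 and 2.12 CPM (log2 3.61, adjusted p = 2.57e-06), and its within-library difference of 2.36 did not pass when progenitors served as the reference (1.42, adjusted p = 0.177).

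**Figure D4:**
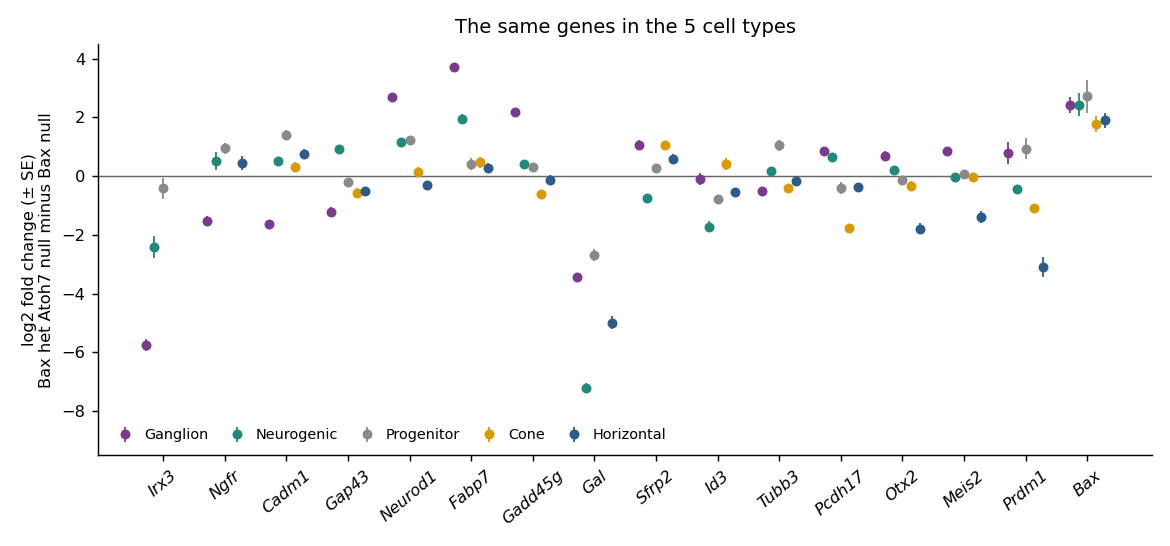
Log2 change of 16 genes between Bax het Atoh7 null and Bax null in the 5 cell types, with bars of 1 SE (a gene not tested in a type has no point). Bax is higher in every type, Gal is lower in the 4 types in which it was tested, and Cadm1, Sfrp2, Pcdh17 and Meis2 lie on both sides of 0.

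Of the axon and neuronal genes, 16 were tested in progenitors, with 6 higher and 5 lower, near the 26.6% and 26.5% of all genes. The lower count was 3 without any 1 of the 4 libraries. The 6 genes particular to progenitors were Cadm1, Tubb3, Map1b, Elavl3, Rassf4 and D930028M14Rik, and all 6 were higher there than in Bax null. Tubb3, the neuronal tubulin, read 59.2 and 50.6 CPM against 28.8 and 24.0 CPM (log2 1.06, SE 0.18, adjusted p = 0.00124) and fell in ganglion cells (log2 -0.51) and cones (log2 -0.41). The ganglion fall of Tubb3 was not called without Bax het Atoh7 null replicate 1 (log2 -0.43, adjusted p = 0.0693) or Bax null replicate 2 (log2 -0.48, adjusted p = 0.0744), and the cone fall was not called without any 1 of the 4 libraries (adjusted p from 0.136 to 0.213). Elavl3, a neuronal RNA-binding protein, read 13.4 and 9.87 against 6.94 and 5.92 CPM (log2 0.86, adjusted p = 0.00286), and Rassf4, a Ras-association protein, 15.1 and 11.5 against 8.49 and 7.34 CPM (log2 0.75, adjusted p = 0.00404). The groups did not overlap for any of these. Map1b, a microtubule protein of growing axons, read 608 and 582 against 488 and 449.5 CPM (log2 0.35, adjusted p = 0.0194), a rise not called without Bax null replicate 2 (log2 0.28, adjusted p = 0.2), Bax null replicate 1 (log2 0.40, adjusted p = 0.078), Bax het Atoh7 null replicate 1 (log2 0.32, adjusted p = 0.0993) or Bax het Atoh7 null replicate 2 (log2 0.38, adjusted p = 0.061). D930028M14Rik, a RIKEN gene, read 22.0 and 14.1 against 9.27 and 8.89 CPM (log2 0.995, adjusted p = 0.0463) and was not called without any 1 of the 4 libraries (adjusted p from 0.0501 to 0.311). With limma on a single difference per library, Cadm1 (adjusted p = 0.0714), Map1b (0.103), Rassf4 (0.211), Tubb3 (0.301) and Elavl3 (0.449) were not called. Without TMM, the 6 ganglion markers summed to 88.8 and 93.6 CPM in progenitors of Bax het Atoh7 null against 51.3 and 44.8 CPM. The 7 neurogenic markers summed to 500 and 536 against 307 and 291 CPM. The scale of these sums widens their rise beside the gene levels above. Their part in these differences was not tested.

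Neurogenic genes were also higher in progenitors, with 14 of 19 higher and 1 lower (median log2 change 1.05), where 26.6% of all genes were higher. The count of higher genes was 9 without Bax null replicate 2. Dll1, a Notch ligand of cells that start to differentiate, read 15.7 and 14.5 against 6.56 and 6.63 CPM (log2 1.199, adjusted p = 2.63e-05). Neurod1, from the cone and photoreceptor list, read 35.2 and 29.3 CPM against 15.6 and 12.0 CPM (log2 1.23, adjusted p = 0.000192). Both libraries of Bax het Atoh7 null were above Bax null. Within libraries the neurogenic list went both ways in progenitors, with 8 of 20 above the other types and 5 below. Of all genes, 3.62% lay above and 6.17% below. Hey1, a Notch effector, read 34.4 and 40.1 against 18.6 and 14.7 CPM (log2 1.16, adjusted p = 7.89e-05), which is opposite in direction to Hes1. Slc1a3, a glutamate transporter of radial glia and progenitors, read 26.5 and 25.6 against 87.5 and 93.9 CPM (log2 -1.80, adjusted p = 7.59e-07). Of 11 hedgehog genes, 10 were tested in progenitors, with 1 higher and 5 lower, where 26.5% of all genes were lower. Gli1, a target and effector of hedgehog signals, which ganglion cells send to progenitors, was at 0.0921 and 0 CPM against 9.61 and 8.49 CPM. Gli2 read 10.5 and 9.61 against 19.8 and 20.7 CPM (log2 -1.01, adjusted p = 0.000362). Hhip, a hedgehog-binding target gene, read 0.691 and 0.672 against 2.44 and 3.25 CPM (log2 -2.05, adjusted p = 0.000353). Ptch1, also on the list, changed less, by log2 -0.37 to -0.20 over the settings run, and was not called in every one. The within-library differences of Gli1 and Gli2 were not called (adjusted p = 0.832 and 0.726). The fullest progenitor clusters were 6 and 17 in Bax het Atoh7 null and 5 and 10 in Bax null.

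Neither Crx nor Otx2, both among the cone markers used here, was called in cones. Crx, a homeobox factor of photoreceptors, read 317 and 321 against 373 and 340.5 CPM (log2 -0.16, adjusted p = 0.36), and Otx2, which acts upstream of it, 1145 and 1086 against 1385 and 1421 CPM (log2 -0.33, adjusted p = 0.123). Fitted on only the 4 libraries compared, the Otx2 fall was called (log2 -0.33, adjusted p = 0.00184), and likewise without replicate 1 (adjusted p = 0.00109) or replicate 2 (adjusted p = 0.000969) of the group labelled Bax null Atoh7 null. Of 20 cone and photoreceptor genes, 13 were tested, with 2 higher and 2 lower (median log2 change -0.01), where 12.7% of all genes were higher and 14.8% lower. Without TMM, the 6 cone markers summed to 3813 and 3930 CPM against 3561 and 3604 CPM. These sums are not on the scale of the gene levels around them, so their order shows neither a rise nor a fall. Prdm1, a repressor that favours photoreceptor over bipolar fate, fell from 551 and 483 CPM to 255 and 230 CPM (log2 -1.09, SE 0.13, adjusted p = 1.82e-06). Thrb, the thyroid hormone receptor of cones, read 431 and 396 against 281 and 286 CPM (log2 0.54, adjusted p = 0.00361), a rise not called without Bax null replicate 1 (log2 0.53, adjusted p = 0.0694) or Bax null replicate 2 (log2 0.55, adjusted p = 0.0619).

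Pcdh17, a protocadherin, and Cd63, a tetraspanin of endosomes and lysosomes, were the 2 genes called both in cones and as particular to them with the same direction. Pcdh17 read 69.95 and 63.2 CPM against 235 and 214 CPM (log2 -1.76, SE 0.14, adjusted p = 9.01e-09) and rose in ganglion cells (log2 0.87) and neurogenic cells (log2 0.65). Cd63 read 282 and 268 against 533 and 549 CPM (log2 -0.98, adjusted p = 6.58e-06). Their within-library differences were -1.90 and -0.73, and with limma on a single difference per library neither was called (adjusted p = 0.191 and 0.3). Gas2, a microfilament-associated protein, fell to 46.6 and 75.5 CPM from 221 and 246 CPM (log2 -1.92, adjusted p = 1.03e-06), but read 130 and 214 CPM in the libraries labelled Bax null Atoh7 null. Slc17a6, a vesicular glutamate transporter, rose in cones from 12.7 and 6.72 CPM to 103 and 62.5 CPM (log2 3.04, adjusted p = 8.9e-06), while it fell in ganglion cells, from 18.8 and 18.4 CPM to 2.88 and 5.59 CPM (log2 -2.05). In cones labelled Bax null Atoh7 null it read 28.5 and 8.50 CPM. Its within-library difference in cones, 3.54, was not called without Bax null replicate 2 (log2 2.95, adjusted p = 0.191). That in ganglion cells, -2.83, was not called without any 1 of the 4 libraries (adjusted p = 0.0574 without Bax null replicate 2, 0.059 without Bax null replicate 1, and 1.0 without Bax het Atoh7 null replicate 1 or replicate 2).

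The cells labelled horizontal carried horizontal and amacrine markers together. Without TMM, the 5 horizontal markers summed to 1947 and 1697 against 1220 and 1196 CPM. The 5 amacrine markers summed to 1628 and 1582 CPM against 1045 and 1062 CPM. These sums are not on the scale of the gene levels below, so the size of their rise cannot be read from them. Onecut2, a factor of horizontal cells, read 1607 and 1424 against 1358 and 1354 CPM (log2 0.16, adjusted p = 0.42). Prox1, a homeobox factor of horizontal cells, read 98.1 and 84.2 against 98.4 and 93.0 CPM (log2 -0.08, adjusted p = 0.768), with groups that overlapped. Tfap2a, an amacrine factor, rose from 28.2 and 27.3 CPM to 61.6 and 55.2 CPM (log2 1.06, adjusted p = 0.000844). Of 12 horizontal genes, 10 were tested, with 4 higher and 1 lower, and of 14 amacrine genes, 11 were tested, with 5 higher and 2 lower, where 14.4% of all genes were higher and 15.8% lower.

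Photoreceptor genes were lower in the horizontal-labelled cells. Of 20 cone and photoreceptor genes, 7 were tested, with 0 higher and 4 lower (median log2 change -1.58), and 6 of 15 lay below the other types within libraries, as did 1.1% of all genes. Prdm1 read 7.47 and 5.81 CPM in Bax het Atoh7 null against 43.7 and 68.2 CPM (log2 -3.08, SE 0.35, adjusted p = 1.22e-06), Otx2 29.0 and 45.0 against 123 and 137 CPM (log2 -1.78, adjusted p = 5.2e-07), and Thrb 1.87 and 7.98 against 23.7 and 34.97 CPM (log2 -2.45, adjusted p = 0.000232). Meis2, a homeobox factor of amacrine and other retinal neurons, read 34.6 and 48.6 against 92.9 and 129 CPM (log2 -1.39, adjusted p = 2.32e-05). All 4 were lower in both Bax het Atoh7 null libraries and particular to horizontal-labelled cells (within-library differences -3.14, -1.88, -2.84 and -1.59). Thrb and Meis2 rose in ganglion cells (log2 0.79 and 0.85). Meg3, an imprinted long noncoding RNA, was the single gene particular to these cells with a higher level, at 522 and 494 against 322 and 350 CPM (log2 0.60, adjusted p = 0.00173). Its rise was not called without Bax null replicate 1 (log2 0.53, adjusted p = 0.0585). With limma on a single difference per library none of the 5 was called (adjusted p from 0.319 to 0.438).

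These differences lay mostly in 2 of the 6 clusters that carry the label, and they are given without a test. The clusters were divided, after their values were seen, by whether Tfap2b was under 0.5 times its mean over the 6. Clusters 45 and 139, which were under it, held 102 and 139 cells of Bax het Atoh7 null and 115 and 95 cells of Bax null. Levels per cluster are CPM without TMM. Otx2 was at 20.1 and 77.4 CPM in clusters 45 and 139 in Bax het Atoh7 null and 175 and 220 CPM in Bax null. In clusters 2, 57, 76 and 141 it was at 35.1 and 37.3 against 30.9 and 21.4 CPM. The Prdm1 values of clusters 45 and 139 rest on 5 and 6 UMIs against 47 and 80 in Bax null. Tfap2b read 76.3 and 77.4 against 96.7 and 58.5 CPM in these 2 clusters and 1078 and 1044 against 696 and 660 CPM in the other 4. Over the whole label, its log2 change on normalised levels lay between 0.51 and 0.60 in the settings run.

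**Figure D5:**
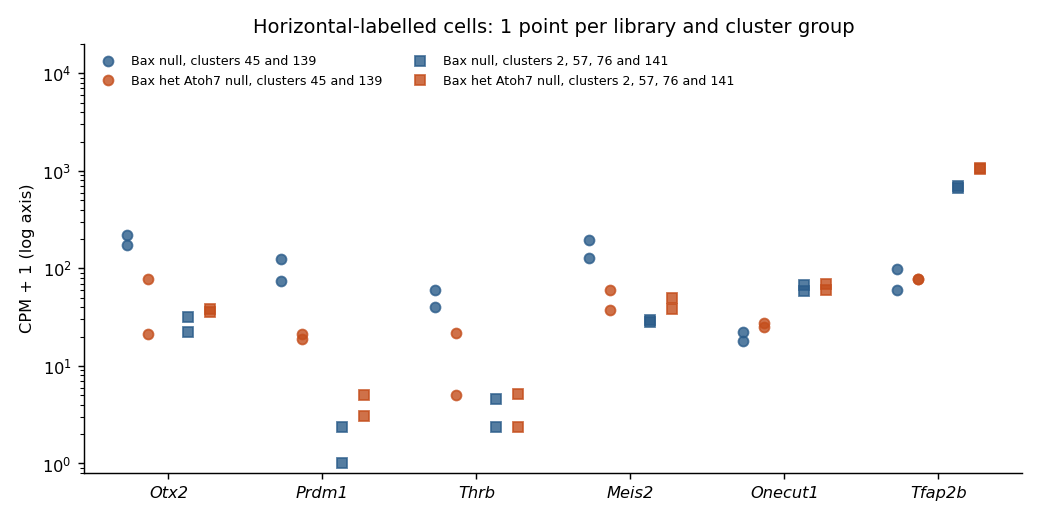
CPM + 1, without TMM, of 6 genes in cells labelled horizontal, on a log axis, with circles for clusters 45 and 139 and squares for clusters 2, 57, 76 and 141, 1 point per library. The Otx2, Prdm1, Thrb and Meis2 circles of Bax null lie above those of Bax het Atoh7 null (Otx2 at 175 and 220 against 20.1 and 77.4 CPM), while for none of these 4 genes are both squares of Bax het Atoh7 null below those of Bax null.

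Genes of cell death were called in both directions in ganglion cells. Of 21 Bcl2 family and caspase genes, a list without Bax, 17 were tested in ganglion cells, with 4 higher and 2 lower, where 50.0% of all genes were called. Bbc3, the death-promoting protein PUMA, fell in ganglion cells from 94.7 and 102 CPM to 64.7 and 64.4 CPM (log2 -0.61, adjusted p = 0.000278), in neurogenic cells (log2 -1.20, adjusted p = 6.18e-05) and in progenitors (log2 -0.66, adjusted p = 0.000892). Of 16 p53 target genes, 10 were tested in ganglion cells, with 5 higher and 2 lower, where 25.0% of all genes were higher and 25.0% lower.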

How the data were processed

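Gene counts were deposited by the authors as UMIs per gene and cell, with their own cell type and cluster labels, and were used as deposited. Per the submitters' processing notes, Cell Ranger 1.2.1 and mm10 were used. Their roles, the cell filter and any removal of doublets are not given in the sources used here. Cells of 2 further libraries in the cell table (26078 cells) carry library names that match no sample used here, and they were not used. Of 27998 gene IDs, 27722 (99.01%) matched the GENCODE annotation, which gave positions.

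UMIs were summed per library and cell type. The 4 libraries compared held 9269 to 11345 cells and medians of 2206 to 6804 UMIs per cell. Each type was tested with edgeR 4.0.16 in R 4.3.3 (filterByExpr, TMM, quasi-likelihood F test, Benjamini-Hochberg adjustment over all genes tested), with all 6 libraries in 1 fit so that the spread was shared. The within-library differences came from 1 fit to the 30 sums, with a term for each library and for each type in each genotype. The "particular" rule takes the largest p of the 4 pairwise differences, adjusted likewise. Cell numbers were tested with the same tool. The fits were tested on simulated counts.

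Alternatives were RLE size factors, no filter, a replicate block, only the 4 libraries, DESeq2 1.42.0, limma 3.58.1, 8% of each library left out by Scrublet score (scanpy 1.11.5), cells under 1000 UMIs left out, thinning, progenitors as reference, and each library left out. Chosen after seeing the data were the share among cells other than ganglion cells and limma on pairs of types. Members and gene lists were chosen with earlier results of these data known. Named genes are Atoh7, Bax, list and marker members, up to 5 per direction and type by within-library difference (called in both fits) and up to 3 by direct change. Both kinds needed at least 20 CPM and groups that did not overlap. Sex-linked genes were left out. Further genes are named as chosen after their values were seen or for being particular to a type.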

Additional observations from a re-analysis of the deposited data

Results flagged for a closer look

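A set of genes was called in opposite directions in 2 cell types, and the difference between the types was tested within libraries. Values are within-library log2 differences from edgeR's quasi-likelihood fit over all sums. With limma on 1 difference per library and pair of types, chosen after seeing the data, the same comparison called 0 genes in each type.

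In ganglion cells, neuronal genes lay below the other types. Ngfr was at -3.97, Cadm1 at -2.39, Mapt at -2.00, Stmn3 at -1.51, Meg3 at -1.46, Gap43 at -1.14 and Map1b at -0.86. Other genes lay above them: Gadd45g at 2.19, Reln at 1.71, Eif4ebp1 at 1.47, Mthfd2 at 1.43, Ddit3 at 1.40, Dapl1 at 1.19 and Meis2 at 1.18. The direct rise opposite to these falls was in horizontal cells for Mapt (0.53) and Meg3 (0.60), and the fall opposite to a rise was in progenitors for Reln (-0.21) and in cones for Mthfd2 (-0.52). Each of these 4 missed the threshold without at least 1 of the 4 libraries.

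In neurogenic cells, Cp, which encodes ceruloplasmin, was at -1.79, Sfrp2 at -1.51, Fgf15 at -1.39 and Dapl1 at -1.34, while Gap43 was at 1.54 and Cplx2 at 1.11. In progenitors, Cadm1 was at 1.38, D930028M14Rik at 1.28, Tubb3 at 1.25, Rassf4 at 1.19 and Map1b at 0.67. Pcdh17 was at -1.90 in cones. In horizontal-labelled cells Thrb was at -2.84, Otx2 at -1.88, Meis2 at -1.59 and Meg3 at 1.19.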

How the results depend on the processing

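The shares of ganglion cells, cones and horizontal cells kept their direction and their call under every alternative run. The neurogenic share rose past the threshold with a replicate block (0.24, adjusted p = 0.0207) and without doublets (0.34, adjusted p = 0.0228), and the progenitor share changed sign among cells other than ganglion cells (-0.12). Without 1 library, the log2 change ranged from -1.30 to -0.88 for ganglion cells, 0.15 to 0.33 for neurogenic cells, -0.039 to 0.095 for progenitors, 0.89 to 1.11 for cones and 0.50 to 0.75 for horizontal cells.

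Genes called directly came to 1098 in cones and 1082 in horizontal cells with DESeq2, which also gave 234 higher and 442 lower in all 5 types. Thinned to the smallest total, 411 were higher in all 5 types. Without 1 library, the called genes ranged from 3802 to 5755 in ganglion cells, 3516 to 6053 in neurogenic cells, 4813 to 7922 in progenitors, 1405 to 3086 in cones and 1469 to 3116 in horizontal cells, with 261 to 741 higher and 442 to 1020 lower in all 5.

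Within libraries, thinning left 973 genes in ganglion cells, 697 in neurogenic cells, 758 in progenitors, 284 in cones and 102 in horizontal cells, and leaving out doublets left 711 in neurogenic cells. With progenitors as the reference, 737 were called in cones and 341 in horizontal cells. With limma on 1 difference per library, 357 were called in ganglion cells, 1 in neurogenic cells, 3 in progenitors, 1 in cones and 0 in horizontal cells. With a replicate block added, limma called 66 in ganglion cells and 0 in each other type (1786, 1999, 1204 and 1007 at an unadjusted p under 0.05 in neurogenic cells, progenitors, cones and horizontal cells). Deviations of same-numbered libraries correlated across genes at 0.0371 to 0.287 between Bax het Atoh7 null and Bax null Atoh7 null, above 0 in each type. For the pairs with Bax null they correlated at -0.0972 to 0.0517. Whether same-numbered libraries were handled together is not given. Without 1 library the within-library calls ranged from 1038 to 1771 in ganglion cells, 486 to 1278 in neurogenic cells, 541 to 1456 in progenitors, 211 to 430 in cones and 77 to 197 in horizontal cells. The split of above against below was 226 to 241 in cones, 441 to 752 in progenitors and 498 to 672 in neurogenic cells. With RLE size factors it was 136 to 284 in cones and 582 to 543 in progenitors, and fitted on only the 4 libraries it was 120 to 307, 810 to 477 and 738 to 589 in that order.

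Genes particular to a type came to 106 in ganglion cells and 1 in cones after thinning, 15 in neurogenic cells without doublets, 10 in progenitors, 9 in cones and 12 in horizontal cells with no filter, 10 in progenitors and 5 in cones on only the 4 libraries, 5 in cones with RLE size factors, and 0 in each type with limma on pairs of types. Without 1 library they ranged from 78 to 207 in ganglion cells, 2 to 34 in neurogenic cells, 3 to 7 in progenitors, 0 to 4 in cones and 1 to 6 in horizontal cells.

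For 338 gene results, 4824 alternative values were computed: 4387 kept direction and call, 410 lost the call, 11 gained it and 16 changed sign. With progenitors as the reference, the sign changed for Chga (-0.21), Stmn3 (-0.019), Dll1 (-0.17) and Neurog2 (0.72) in neurogenic cells and Bax in ganglion cells (-0.26). It changed for Onecut1 in horizontal cells (0.029) and the within-library Isl1 difference in ganglion cells (0.042) after thinning, and for the within-library Olig2 difference in neurogenic cells with limma, with or without the block (0.059). Without 1 library, values crossed 0 for Ina (-0.058 to 0.29) and Isl1 (-0.37 to 0.078) in ganglion cells, Prox1 in horizontal cells (-0.19 to 0.015), Gli1 (-2.46 to 0.32) and Gli2 (-0.50 to 0.069) in progenitors, and Olig2 in neurogenic cells (-1.50 to 0.20). The cause was not tested.

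Genotype and library cannot be told apart in the direct comparison, and 2 libraries per group leave each call to rest on few samples. Cones and horizontal cells held the fewest UMIs, so genes at a few CPM there were often not tested.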
